A study of Mus musculus with 45 samples.

Results

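Nectins, nectin-like molecules and the nectin-binding protein afadin were measured by RNA-seq in mouse PyMT+ mammary tumour cell lines. The 9 genes were Nectin1, Nectin2, Nectin3, Nectin4, Pvr, Cadm1, Cadm3, Cadm4 and Afdn, of 54838 genes in the deposited table. They were selected on measured values, since Nectin3 was much lower in lines derived from the YEJG tumour line than in lines derived from the YEJH tumour line. The difference between those 2 origins is therefore given below as a description, with no test. In all, 8 of the 9 genes had enough reads to be tested, among 17110 genes tested, and Cadm3 did not.

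Nectins are immunoglobulin-like cell-surface proteins that bind nectins on a neighbouring cell and hold adherens junctions together with E-cadherin. Inside the cell they bind afadin, which links them to actin filaments. The nectin-like molecules, which comprise PVR (the poliovirus receptor homologue) and the CADM proteins, have a similar extracellular part but do not bind afadin. In epithelia these proteins place and stabilise cell contacts. On tumour cells, PVR and Nectin2 are also ligands of receptors on T cells and natural killer cells.

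All lines carry the polyomavirus middle T antigen, which the MMTV promoter expresses in mammary epithelium, on the FVB/N background. YEJG and YEJH, labelled as primary mammary tumour, are the 2 parental lines, with 1 line each. Lines derived after transplantation of such cells came from fat-pad tumours (YEJG-FP, and YEJH-FP1 to YEJH-FP5) or from lungs (YEJG-M1 and YEJG-M2, and YEJH-M1 to YEJH-M5), giving 13 derived lines. The lung lines were labelled as whole lung, except for YEJH-M3, which was labelled as lung metastases. The lines were grown in dishes, with no treatment named, and 3 technical repeats of each of the 15 lines were sequenced, giving 45 libraries. Lines of 1 origin share 1 parental line, YEJG has a single fat-pad line, and the labels do not say whether a line is a clone or which lines came from 1 mouse.

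Libraries held between 9723860 and 16943900 reads on genes, with a median of 13944899. Levels are given as CPM, a gene's reads per 1000000 reads of the library, after scaling by TMM, a normalisation that sets the bulk of genes equal between libraries, and a line's value is the mean ± SD of its 3 technical repeats. The mammary epithelial markers Krt8, Krt18 and Epcam were present in every line. Of the marker lists for other cell types, 5 of 6 leukocyte markers, 4 of 4 endothelial markers, 4 of 4 lung epithelial markers and 3 of 3 neural markers stayed under 1 CPM in every line. The library of YEJH-M3 repeat 2 lay farthest from its own line's mean over all genes (root mean square distance of 0.359 in log2 CPM, against 0.293 for the next library), and values of Nectin1, Nectin3 and Afdn in YEJH lines are also given without it. The title of the YEJG-M1 repeat 1 library and the line in its library name disagree, and the title was used.

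The members differed widely in their level. Per kilobase of canonical transcript, Afdn (48.6 ± 2.56 CPM per kb, SD, n = 10 lines) was the highest in YEJH-derived lines, followed by Cadm1 (39.7 ± 3.47) and Pvr (31.7 ± 3.39), then Nectin2 (15.6 ± 2.23). Cadm4 (7.26 ± 1.27 CPM per kb), Nectin3 (6.86 ± 0.766) and Nectin1 (5.62 ± 0.805) came next, and Nectin4 was lowest of the detected members at 0.756 ± 0.525. Line ranges of Cadm1 and Pvr overlapped, yet by this length Cadm1 lay above Pvr in every YEJH-derived line. The ranges of Cadm4, Nectin3 and Nectin1 overlapped too, and the order of these genes changed between lines. Cadm3, the nectin-like molecule of neurons, had 0 reads in all 45 libraries, which allows at most 0.00473 CPM over all libraries by a limit of 3 reads. This covers counting error only, and sequencing reads are not independent molecules. In YEJG-derived lines the first places were taken by Cadm1 (46.3 ± 6.38 CPM per kb, n = 3 lines) and Afdn (34.6 ± 8.35), whose ranges overlapped, and Nectin3 (1.66 ± 0.288) lay below Nectin1 (5.40 ± 1.03) and Cadm4 (2.96 ± 0.397). The order depended on the length used. Per kilobase of all annotated exons of a gene joined, YEJH-derived lines had means of 27.2 CPM per kb for Afdn, 14.8 for Pvr, 11.3 for Cadm1, 4.87 for Nectin1 and 3.38 for Nectin3, so that Pvr came before Cadm1 and Nectin1 before Nectin3. In YEJG-derived lines Afdn (19.4 CPM per kb) then came before Cadm1 (13.1).

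Nectin3, a nectin that pairs preferentially with Nectin1 or Nectin2 on the opposite cell, lies on chromosome 16 (46208069 to 46318888, minus strand, GRCm39). It stood at 12.3 ± 0.812 CPM in YEJG-FP, 17.1 ± 0.325 CPM in YEJG-M1 and 16.8 ± 0.641 CPM in YEJG-M2. All 9 YEJG-derived libraries held between 11.5 and 17.5 CPM, from 146 to 268 reads each. The 10 YEJH-derived lines ranged from 46.5 CPM in YEJH-M1 to 72.0 CPM in YEJH-M3, with a median of 65.7 CPM. Without its repeat 2, YEJH-M3 stood at 68.5 CPM, and the highest line was then at 69.1 CPM. Every YEJG-derived line thus lay below every YEJH-derived line, and the fitted level was 4.44-fold lower (log2 difference of -2.15 ± 0.12, SE). The parental lines differed in the same direction before any transplantation, at 33.8 ± 2.94 CPM in YEJG and 78.6 ± 15.6 CPM in YEJH, a 2.38-fold lower fitted level in YEJG. A fitted fold over 2 between these single parental lines was seen for 14.1% of all genes. Of the 8 tested members only Nectin3, the gene they were chosen for, was past it, and nothing is read from this count.

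**Figure D1:**
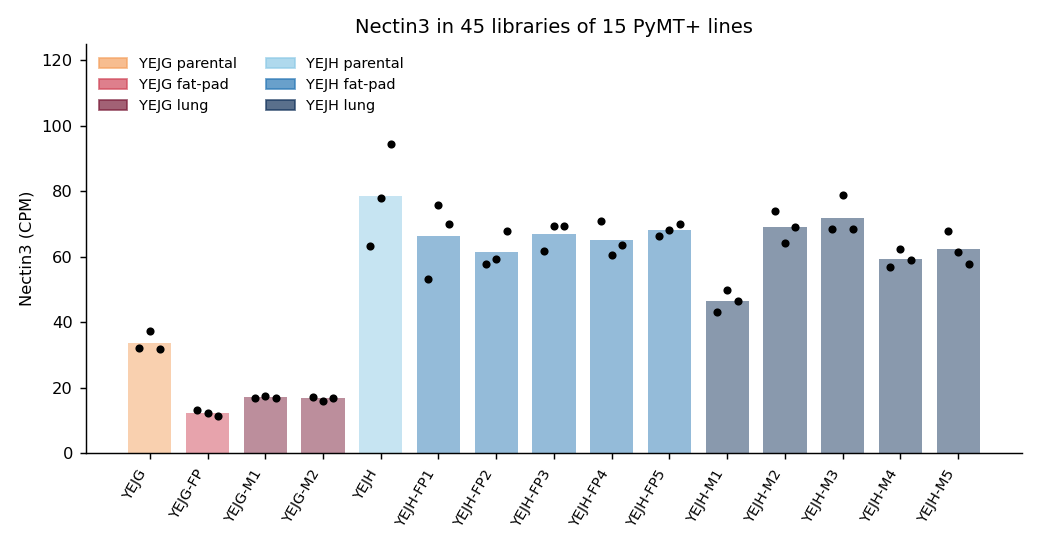
Nectin3 level in CPM (y axis, linear) in each of 15 lines (x axis). Bars are line means, points are the 3 technical repeats, and colours mark origin and site. The 3 YEJG-derived lines stand between 12.3 and 17.1 CPM and the 10 YEJH-derived lines between 46.5 and 72.0 CPM.

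Each YEJG-derived line also lay below its own parental line in Nectin3. The fitted level was 2.36-fold lower in YEJG-derived lines than in the YEJG line (log2 difference of -1.24 ± 0.16, SE), with no test since the gene was chosen for being low in those lines. In YEJH, the corresponding log2 difference was -0.34 ± 0.14 (adjusted p = 0.272, by the quasi-likelihood test of edgeR adjusted over all genes by Benjamini and Hochberg, as for every adjusted p below), which did not pass the threshold of 0.05.

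Of the other members, Pvr, Cadm4 and Afdn also had every YEJG-derived line mean below every YEJH-derived line mean. These were 3 of the 7 tested members left when Nectin3, for which the members were chosen, is not counted. Among all genes, line means did not overlap in either direction for 23.1%, and nothing is read from the members' count. Cadm4, a nectin-like molecule that forms contacts by itself or with other CADM proteins, stood at 7.39 ± 0.222 CPM in YEJG-FP, 5.87 ± 0.295 CPM in YEJG-M1 and 5.93 ± 0.442 CPM in YEJG-M2, against a range of 13.3 to 22.5 CPM in YEJH-derived lines. Its fitted level was 2.39-fold lower. Pvr was 1.79-fold lower (32.6 to 70.2 CPM against 78.3 to 107 CPM) and Afdn 1.35-fold lower (222 to 358 CPM against 382 to 454 CPM), and in both genes YEJG-FP lay closer to the YEJH range, while the YEJG lung lines lay far below it. Without repeat 2 of YEJH-M3, the YEJH-derived lines reached 415 CPM in Afdn, and their lowest Nectin1 was 24.4 CPM. Nectin2 was 1.46-fold lower with overlapping ranges (19.7 to 36.3 CPM against 36.1 to 55.0 CPM), and Nectin1 (26.0 to 38.2 CPM against 26.5 to 41.6 CPM) overlapped broadly. For Cadm1 (178 to 235 CPM against 152 to 200 CPM), YEJG-FP lay inside the YEJH range, whereas YEJG-M1 (235 CPM) and YEJG-M2 (216 CPM) lay above its highest line. Nectin4 was low throughout, between 0.442 and 1.57 CPM in YEJG-derived lines and between 0.740 and 7.94 CPM in YEJH-derived lines.

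**Figure D2:**
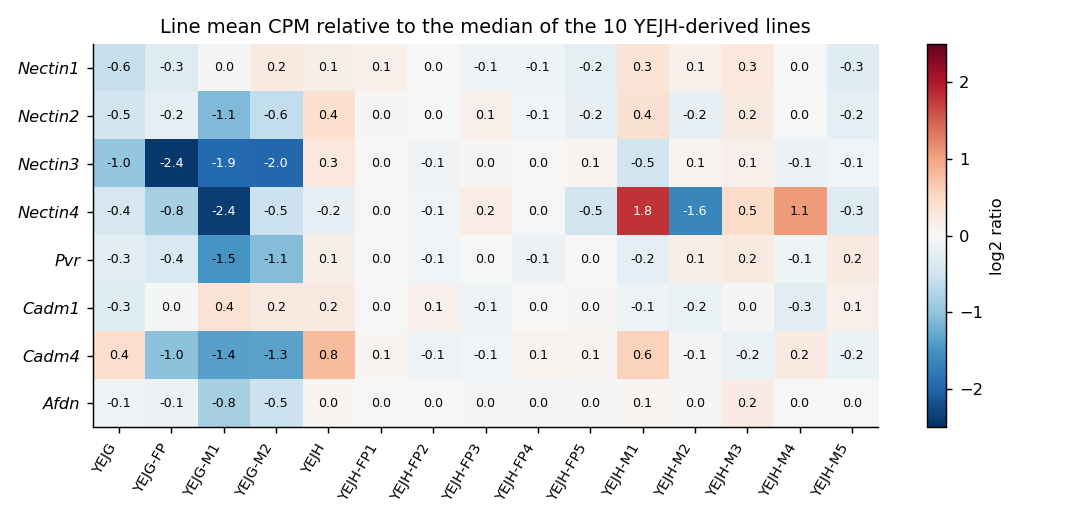
Log2 ratio of each line's mean CPM to the median of the 10 YEJH-derived lines (colour and printed value), for 8 members (rows) in 15 lines (columns). Nectin3 and Cadm4 are lower in the 3 YEJG-derived lines, and the values that stand out among YEJH lines are those of Nectin4 in YEJH-M1 and YEJH-M2.

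Markers of cell state moved with the same split. The summed level of 8 mammary epithelial markers was between 3626 and 6271 CPM in YEJG-derived lines and between 7669 and 10561 CPM in YEJH-derived lines. The 5 basal or mesenchymal markers summed to between 1296 and 4364 CPM in YEJG-derived lines and between 646 and 1241 CPM in YEJH-derived lines, with Krt5 and Trp63, markers of basal cells, under 1 CPM in every line. Averaged over lines, most of this sum was Vim, a filament gene of mesenchymal cells (mean of 2610 CPM against 473 CPM), while Krt14, a keratin of basal cells, averaged 258 CPM against 366 CPM, below its level in the YEJG (1367 CPM) and YEJH (746 CPM) parental lines. The 5 fibroblast markers summed to between 9.64 and 83.3 CPM and between 2.31 and 5.14 CPM, respectively, with Lum at 0 in all libraries and Dcn under 1 CPM in every line. In the parental lines, where Nectin3 already differed, the epithelial markers summed to 9175 CPM in YEJG and 8081 CPM in YEJH, the basal or mesenchymal markers to 1608 and 994 CPM, and the fibroblast markers to 1.95 and 2.91 CPM. The part of cell state in the Nectin3 values was not tested, and in bulk RNA fewer cells of a type and less RNA per cell cannot be told apart.

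The promoters of Nectin3 and Cadm4 are shown because both genes were lower in every YEJG-derived line than in every YEJH-derived line, and had the largest folds among the members between YEJG-derived lines and the YEJG line. RefSeq sequences for GRCm38.p6 were matched by symbol for 6 of the 9 members, and Nectin1, Pvr and Cadm1 had no entry. The 250 bases before the transcription start are given 5′ to 3′ on the gene's strand, chr16:46496968-46497217 (minus strand) for Nectin3 and chr7:24481773-24482022 (plus strand) for Cadm4. Capitals mark GC boxes, searched as GGGCGG on both strands with CCGCCC as its reverse complement.
Nectin3: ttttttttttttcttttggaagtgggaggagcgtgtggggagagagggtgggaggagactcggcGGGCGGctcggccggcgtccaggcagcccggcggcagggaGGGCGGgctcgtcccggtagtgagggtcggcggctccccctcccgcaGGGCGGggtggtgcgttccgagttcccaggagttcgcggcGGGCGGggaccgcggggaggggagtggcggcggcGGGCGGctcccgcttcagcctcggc
Cadm4: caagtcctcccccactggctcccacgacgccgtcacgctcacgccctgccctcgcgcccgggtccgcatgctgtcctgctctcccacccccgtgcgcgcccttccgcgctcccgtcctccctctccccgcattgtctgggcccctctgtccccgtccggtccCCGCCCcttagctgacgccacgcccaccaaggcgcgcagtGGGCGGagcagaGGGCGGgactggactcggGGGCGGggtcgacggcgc
Nectin3 held 5 GC boxes and Cadm4 held 4, and Afdn (4) and Nectin2 (2) held them too, while Nectin4 and Cadm3 held 0. A GC box was present in 32.7% of 32851 promoters of this length. The GC content was 73.2% for Nectin3, 75.2% for Cadm4 and 82.8% for Afdn, against a median of 52.4% over all promoters, and 54.4% for Nectin4. The E-box CACCTG, with CAGGTG as its reverse complement, was found in 17.2% of promoters and, among the 6 members, in Nectin2 only. A match describes letters in this window and not a binding site.

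The study compared lines from lung with lines from fat-pad tumours. In YEJH, with 5 lines at each site, none of the members passed the test between lung and fat-pad lines. In edgeR 0 of 8 were called, against 0.0117% of all genes. An unadjusted p under 0.05 was found for 0 of 8, against 6.7% of all genes. DESeq2 and limma, used as alternatives, also called 0 of 8. Nectin3 stood at 61.9 ± 9.96 CPM (SD, n = 5) in YEJH lung lines, from 46.5 to 72.0 CPM, and at 65.6 ± 2.52 CPM in YEJH fat-pad lines, from 61.6 to 68.2 CPM, so that the ranges overlapped. Its log2 difference was -0.09, with a 95% interval from -0.30 to 0.11. Intervals were narrow for Afdn (-0.07 to 0.18), Cadm1 (-0.25 to 0.06) and Pvr (-0.12 to 0.31), and wide for Nectin4 (-0.39 to 1.84). The log2 difference of Nectin1 was 0.15 ± 0.11 (SE) with repeat 2 of YEJH-M3 and 0.04 ± 0.13 without it (adjusted p = 0.971, edgeR). The median log2 difference was 0.08 over the 8 members and 0.01 over all genes.

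In YEJG the lung lines differed from the single fat-pad line. Pvr stood at 70.2 ± 4.21 CPM in YEJG-FP, and at 32.6 ± 1.88 CPM in YEJG-M1 and 43.1 ± 6.01 CPM in YEJG-M2. It was 1.85-fold lower in the lung lines (log2 difference of -0.89 ± 0.18, SE, adjusted p = 0.00575, edgeR). Afdn, the gene of afadin, stood at 358 ± 2.88 CPM in YEJG-FP, 222 ± 3.84 CPM in YEJG-M1 and 273 ± 2.74 CPM in YEJG-M2, and was 1.44-fold lower (-0.53 ± 0.11, adjusted p = 0.00508, edgeR). In both genes the lung lines lay below every other line measured, the parental lines included. These were 2 of 8 members called, both lower, beside 17.1% of all genes called. The single YEJG-FP line was assumed to vary like the lines of the other groups. The summed markers differed between the same lines, with epithelial sums of 6271 CPM in YEJG-FP, 3662 CPM in YEJG-M1 and 3626 CPM in YEJG-M2, and basal or mesenchymal sums of 1296, 4364 and 3066 CPM. The fibroblast sums were 9.64, 66.5 and 83.3 CPM, and the part of these cell-state markers in the differences of Pvr and Afdn was not tested.

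The other 6 members did not pass the threshold in YEJG. Nectin3 was 1.37-fold higher in the lung lines than in YEJG-FP (log2 difference of 0.46 ± 0.19, adjusted p = 0.12, edgeR), and Nectin2 was 1.53-fold lower (-0.62 ± 0.24, adjusted p = 0.1, edgeR). Nectin1 (0.42 ± 0.21), Cadm1 (0.35 ± 0.13), Cadm4 (-0.32 ± 0.27) and Nectin4 (-0.35 ± 1.03) gave adjusted p-values from 0.1 to 0.857 in edgeR. Without YEJG-M2 the difference of Nectin2 passed (-0.90 ± 0.25, adjusted p = 0.03, edgeR), as that of Nectin3 did with library set A alone (0.54 ± 0.16, adjusted p = 0.0398, edgeR). Nectin4 rested on few reads, with 1516 over all 45 libraries.

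The site difference itself differed between origins for the same genes. It was lower in YEJG than in YEJH by a log2 value of -0.98 ± 0.21 for Pvr (adjusted p = 0.00839, edgeR) and -0.58 ± 0.12 for Afdn (adjusted p = 0.0078, edgeR). For Nectin3 the difference between origins was 0.55 ± 0.21 (adjusted p = 0.103, edgeR) and for Cadm1 0.44 ± 0.15 (adjusted p = 0.0757, edgeR). This made 2 of 8 members, against 13.2% of all genes. Leaving out 1 line brought 3 further members past the threshold, namely Nectin3 without YEJH-M1 (0.47 ± 0.12, adjusted p = 0.0204, edgeR), Cadm1 without YEJH-M5 (0.52 ± 0.12, adjusted p = 0.016, edgeR) and Nectin2 without YEJG-M2 (-0.96 ± 0.27, adjusted p = 0.0371, edgeR).

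**Figure D3:**
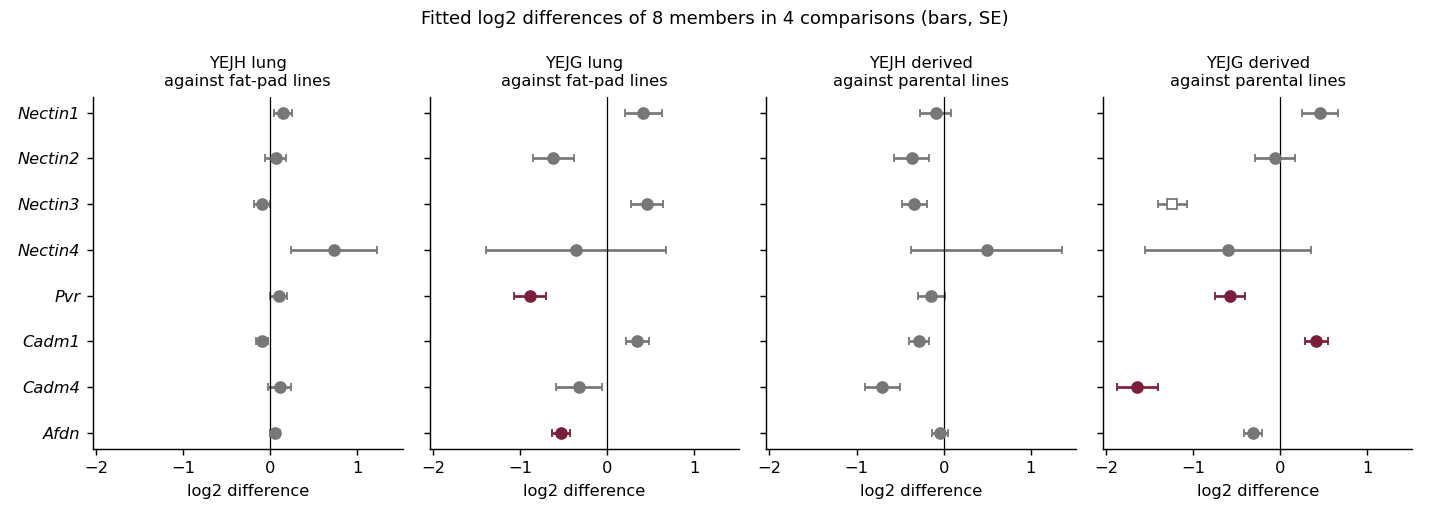
Fitted log2 differences (x axis) with SE for 8 members (y axis) in 4 comparisons. Dark red points passed the adjusted p threshold of 0.05, grey points did not, and the open square is Nectin3 in YEJG-derived against parental lines, which was not tested. Pvr and Afdn are the called members between YEJG lung and fat-pad lines, and no member is called in either YEJH panel.

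Derived lines were next set against their parental line. Each parental line is a single line, assumed to vary like the lines of the other groups, and no alternative fit left it out. In YEJG, Cadm4 fell from 20.3 ± 0.629 CPM in the parental line to between 5.87 and 7.39 CPM in the derived lines, 3.12-fold lower (log2 difference of -1.64 ± 0.24, adjusted p = 0.000497, edgeR). All 3 derived lines lay far below the parental line. Pvr was lower by 1.49-fold (-0.57 ± 0.17, adjusted p = 0.0382, edgeR), although YEJG-FP at 70.2 CPM lay within the spread of the parental repeats (76.2 ± 7.77 CPM). Cadm1, a nectin-like molecule first known as a tumour suppressor in lung cancer, rose from 149 ± 12.9 CPM to between 178 and 235 CPM (1.33-fold, 0.41 ± 0.13, adjusted p = 0.0448, edgeR). Afdn narrowly missed the threshold (-0.31 ± 0.10, adjusted p = 0.0509, edgeR), and 7 of 14 alternative fits called it lower, among them those without YEJG-M1 (adjusted p = 0.0478) and without YEJG-M2 (adjusted p = 0.00388). Apart from Nectin3, 1 of 7 members was thus called higher and 2 lower, beside 17.7% of all genes. The calls of Pvr and Cadm1 lay near the threshold. Without YEJG-M1 the log2 difference of Pvr was -0.48 ± 0.15 (adjusted p = 0.053, edgeR) and that of Cadm1 0.38 ± 0.13 (adjusted p = 0.0754, edgeR), and in all 6 of 14 alternative fits did not call Pvr and 5 of 14 did not call Cadm1, with the direction kept in each. Over these fits their adjusted p ranged from 0.000327 to 0.0854 and from 0.00101 to 0.138.

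In YEJH, 0 of 8 members passed the edgeR test between derived and parental lines, where 2.65% of all genes did. An unadjusted p under 0.05 was found for 3 of 8, namely Nectin3, Cadm1 and Cadm4, and for 15.5% of all genes. Cadm4 was closest, at 26.1 ± 4.44 CPM in YEJH and between 13.3 and 22.5 CPM in the 10 derived lines, all below it (-0.70 ± 0.20, adjusted p = 0.0967, edgeR). DESeq2, limma, library set A alone and the edgeR fits without YEJH-M1 or without technical repeat 3 called Cadm4 lower. Adjusted p-values over all alternatives ran from 3.95e-05 to 0.292, the smallest from limma, which kept technical repeats apart. By line means, Cadm4 was thus below its parental line in all 13 derived lines of both origins. YEJH-M1 (22.5 CPM) lay within the spread of the YEJH parental repeats (26.1 ± 4.44 CPM). The share of all genes with such a pattern was not counted.

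Within YEJH, the lung lines differed among themselves in more of these genes than the fat-pad lines did, as they did over all genes. Between the 5 lung lines 7 of 8 members differed beyond their technical repeats in edgeR's F test, against 31.4% of all genes. Between the 5 fat-pad lines 0 of 8 did (0 of 8 also at an unadjusted p under 0.05), against 1.80% of all genes. These p-values measure the technical spread between repeats of a line only. The variation between lines, as a coefficient of variation, was larger in lung than in fat-pad lines for each of the 8 members. It was 16.1% against 3.83% for Nectin3 and 23.8% against 6.56% for Cadm4. The share of all genes with larger variation in lung lines was not counted, so nothing about the members is read from this. The difference in variation was not tested.

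Over the 8 members YEJH-M1 held more of the lowest and highest values than any other lung line, followed by YEJH-M5. How often each line did so over all genes was not counted, so nothing is read from this order. YEJH-M5 was the lowest lung line in Nectin2 and Cadm4 and the highest in Pvr and Cadm1. Nectin4, a nectin of embryonic and skin epithelia that is often raised in carcinoma, stood at 7.94 ± 1.09 CPM in YEJH-M1, 4.76 ± 0.885 CPM in YEJH-M4, 3.16 ± 0.969 CPM in YEJH-M3, 1.82 ± 0.297 CPM in YEJH-M5 and 0.740 ± 0.319 CPM in YEJH-M2. The highest and the lowest line were 10.7-fold apart (adjusted p = 2.08e-12, edgeR), whereas fat-pad lines lay between 1.67 and 2.61 CPM. YEJH-M1 also had the lowest Nectin3 of the YEJH lines (46.5 ± 3.35 CPM, adjusted p between lung lines = 5.44e-05, edgeR) and the highest Cadm4 of the YEJH-derived lines (22.5 ± 1.75 CPM, adjusted p = 3.4e-08, edgeR). Its Pvr was the lowest of the YEJH lines (78.3 ± 7.72 CPM) and its Nectin2 the highest of the derived lines (55.0 ± 13.3 CPM). YEJH-M1 thus differed from the other YEJH lung lines in opposite directions for different members.

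The call of Afdn between lung lines rested on 1 library. In YEJH-M3, Afdn was 533 CPM in repeat 2 but 405 and 424 CPM in the other repeats, and Nectin1 was 68.4 CPM in repeat 2 but 26.3 and 22.5 CPM in the others. Without that library the adjusted p between lung lines was 0.188 for Afdn and 0.00146 for Nectin1 in edgeR, against 0.011 and 0.209 with it. Leaving out technical repeat 3 of every line also ended the call of Afdn (adjusted p = 0.124, edgeR). In that fit 6 of 8 members were called, beside 2788 of 14374 genes.

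Proteins that join nectins to adherens and tight junctions or signal from them were taken as a list of 39 genes, of which 35 were tested. Between YEJH lung and fat-pad lines 0 of 35 were called by edgeR, beside 0.0117% of all genes. An unadjusted p under 0.05 was found for 1 of 35, beside 6.7% of all genes. The smallest p-values belonged to Ctnnd1, a catenin that stabilises cadherins (log2 difference of 0.13 ± 0.04, adjusted p = 0.403, edgeR), Csk, the kinase that holds Src inactive (-0.10 ± 0.05, adjusted p = 0.751, edgeR), and Rap1b, a small GTPase that afadin binds (0.08 ± 0.04, adjusted p = 0.795, edgeR). The median log2 difference over the list was -0.02.

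Between YEJG lung lines and YEJG-FP, 2 of 35 partners were higher and 11 lower, beside 17.1% of all genes called, with a median log2 difference of -0.06 over the list and -0.01 over all genes. Of the lower genes 3 are shown here, chosen after their values were seen. Cdh1, which encodes E-cadherin, stood at 257 ± 11.9 CPM in YEJG-FP, 61.1 ± 1.67 CPM in YEJG-M1 and 104 ± 5.07 CPM in YEJG-M2 (log2 difference of -1.63 ± 0.22, adjusted p = 0.000511, edgeR). Plekha7, an afadin-binding protein of the adherens junction, stood at 60.8 ± 2.60 CPM, 19.4 ± 2.71 CPM and 21.1 ± 0.981 CPM in the same lines (-1.59 ± 0.21, adjusted p = 0.000385, edgeR). F11r, the junctional adhesion molecule of tight junctions, stood at 136 ± 1.56 CPM, 65.9 ± 3.39 CPM and 82.5 ± 3.17 CPM (-0.87 ± 0.10, adjusted p = 0.000163, edgeR). The YEJG lung lines were the lowest of all 15 lines in each of these genes, as they were in Pvr and Afdn. The 2 higher genes were Epb41l3, a membrane scaffold protein that binds CADM proteins and stood at 0.320 CPM in YEJG-FP, 34.9 CPM in YEJG-M1 and 47.0 CPM in YEJG-M2, and the integrin gene Itgav (0.24 ± 0.07, adjusted p = 0.0438, edgeR).

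**Figure D4:**
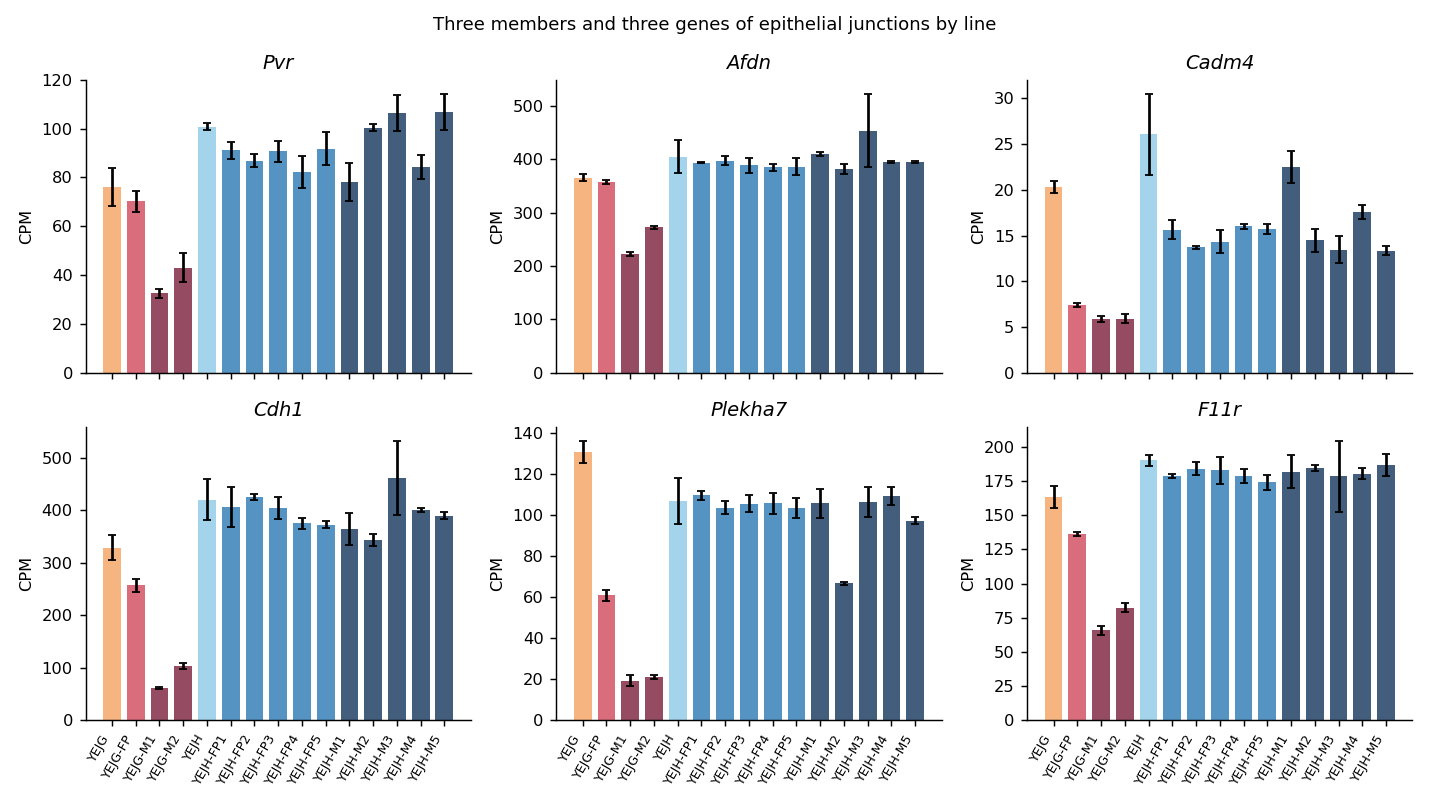
Levels in CPM (y axes, linear, from 0) of Pvr, Afdn, Cadm4, Cdh1, Plekha7 and F11r by line (x axes). Bars are means of 3 technical repeats and error bars are SD. The YEJG lung lines YEJG-M1 and YEJG-M2 have the lowest bars in Pvr, Afdn, Cdh1, Plekha7 and F11r, with E-cadherin at 61.1 and 104 CPM.

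Against the single parental line, 3 of 35 partners were higher and 13 lower in YEJG-derived lines, beside 17.7% of all genes called. In YEJH-derived lines 0 were higher and 2 lower than in their single parental line, beside 2.65%. The 2 lower genes in YEJH were Epb41l3 (12.9 ± 1.61 CPM in YEJH and under 1 CPM in each derived line, adjusted p = 0.00103, edgeR) and Tiam1, an activator of Rac (-0.67 ± 0.10, adjusted p = 0.00583, edgeR). Tiam1 was also lower in YEJG-derived than in YEJG parental cells (-0.61 ± 0.12, adjusted p = 0.00365, edgeR).

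Of 5 genes for receptors through which lymphocytes read nectins and nectin-like molecules, 4 had at most 11 reads over all libraries. Cd226 had 0 reads in all 45 libraries, Cd96 had 1, Pvrig had 7 and Crtam had 11. Tigit, the inhibitory receptor for PVR, was detected in every line, with 1909 reads in all and line means between 1.19 and 5.77 CPM. The T cell marker Cd3e had 0 reads in all 45 libraries.

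The genes whose log2 CPM followed Nectin3 most closely over the 15 line means were Atosb (Pearson r of 0.97), Ccng2 (0.97), Pi4k2b (0.96), Lamb1 (0.96) and Zfand2a (0.95), and those that ran most opposite to it were Heatr3 (-0.97), Prdx3 (-0.96) and Trap1 (-0.96). In all, 130 of 17109 genes had an r above 0.9. The 15 points share their origin, so these values are given as a description only. Over the 11 YEJH lines alone, r was 0.80 for Atosb, -0.14 for Ccng2 and 0.86 for Lamb1. Among the members, r with Nectin3 over 15 lines was 0.82 for Pvr, 0.78 for Cadm4, 0.76 for Afdn, 0.69 for Nectin2, 0.43 for Nectin4, 0.21 for Nectin1 and -0.23 for Cadm1. Within the YEJH lines these were 0.69 for Pvr, -0.11 for Cadm4, 0.02 for Afdn and -0.67 for Nectin4.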

How the data were processed

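The files deposited by the authors hold unnormalised read counts for each gene in 45 polyA RNA libraries (TruSeq RNA Library Prep kit v2, NextSeq500), with 5 further totals for reads outside genes, which were left out. The submitters' processing notes name FastQC, HISAT2, SAMtools 1.2, HTSeq and the human build GRCh38, whereas all gene identifiers are of mouse. The annotation release is not given in the sources used here. Of 54838 identifiers, 50764 (92.6%) matched GENCODE for GRCm39, used for names, positions and lengths. The kit does not mark strand, and genes on the opposite strand share exon bases with Nectin1, Nectin2, Nectin4, Cadm1, Cadm3 and Afdn.

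Counts were summed over the 3 technical repeats of a line, and 15 lines in 6 groups of origin by site were fitted at once with edgeR 4.0.16 (R 4.3.3) on 17110 genes kept by filterByExpr, with TMM, the quasi-likelihood test, 9 residual degrees of freedom and Benjamini-Hochberg adjustment at 0.05. SE is the log2 difference over the square root of F, and 95% intervals use the t distribution. Between lines of a group, libraries were kept apart with library set as covariate (14339 genes). CPM used TMM-scaled totals. Alternatives used DESeq2 1.42.0 and limma 3.58.1, other normalisations and filters, and left out lines and libraries. Functions were tested on simulated data. Figures used Python 3.11.15 and matplotlib 3.10.9. Libraries fell into 2 sets by library name, which differed in 2286 of 14339 genes but in 0 of 8 members (edgeR).

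The members and lists were chosen with earlier results of these data known. Named genes were the 9 members, the partners called between YEJH lung and fat-pad lines or with the 3 smallest p-values, the lymphocyte receptors, and the 5 genes most like and 3 least like Nectin3 by Pearson r. The other partners named (Cdh1, Plekha7, F11r, Epb41l3, Itgav and Tiam1) were chosen after their values were seen. Cell type markers came from fixed lists. P-values of edgeR and DESeq2 measure the spread between lines, except those among lung lines and among fat-pad lines, which measure the technical spread between repeats only. The limma fits kept the technical repeats apart, with a correlation within a line of 0.188 when library set was the covariate. Their p-values therefore draw on the technical spread too and do not measure the spread between lines alone. The study describes the derived lines it plotted as independent and from separate mice, and the labels do not tie lines to mice.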

Additional observations from a re-analysis of the deposited data

Results flagged for a closer look

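Among the 10 YEJH-derived lines, 3 values lay apart from the nearest line by more than Dixon's criterion allows. These were Nectin3 in YEJH-M1 (46.5 CPM, with the next line at 59.5 CPM), Cadm4 in YEJH-M1 (22.5 CPM, next 17.6 CPM) and Afdn in YEJH-M3 (454 CPM, next 410 CPM), the last of which rests on the library of repeat 2 described above. In all, 24 sets of lines were examined, of which 1.2 would stand apart by chance.

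The lung against fat-pad difference was not the same in both origins for Pvr (log2 difference between origins of -0.98) and Afdn (-0.58), each by a test of the difference itself in edgeR. Both kept their direction and their call in all 25 alternative fits, with adjusted p-values up to 0.0352 for Pvr and 0.024 for Afdn. Both values rest on YEJG-FP as the only YEJG fat-pad line, which no alternative could leave out.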

How the results depend on the processing

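Of the members' tested log2 differences under alternative settings, 736 kept direction and call, 28 gained a call, 11 lost one and 11 changed sign. The 11 lost calls were Pvr (6) and Cadm1 (5) in YEJG derived against parental lines. Of the differences described without a test, 212 moved by less than the spread between lines and 2 by more (Afdn between origins, -0.363 without YEJG-M1 and -0.510 without YEJG-M2). The changes of sign were of small or imprecise values. With library set A alone, Nectin1 (-0.0234) and Cadm4 (-0.00509) turned between YEJH lung and fat-pad lines, and Nectin1 (0.0204) between YEJH derived and parental lines. With set B alone the difference between origins of Nectin1 was -0.0236, and with library totals alone Nectin2 in YEJG derived against parental lines was 0.0103. Leaving out 1 line or repeat gave ranges across 0 for Nectin2 (-0.0242 to 0.118) and Cadm4 (-0.0409 to 0.169) between YEJH sites, both negative without YEJH-M1, Nectin4 between YEJG sites (-1.51 to 0.28, positive without YEJG-M1), Nectin1 (-0.221 to 0.0929) and Afdn (-0.0631 to 0.0283) in YEJH and Nectin2 (-0.204 to 0.05002, positive without YEJG-M1) in YEJG between derived and parental lines.

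Between YEJH lung and fat-pad lines, 2 genes were called in all. The count was 1 with library totals alone, 4 with no filter, 81 with DESeq2, 1 with set A, 328 with limma and library set as covariate, 5 with YEJH lines only and 0 to 37 on leaving out lines or repeats (37 without YEJH-M5). For the difference between origins, limma called 3546 genes with library set as covariate, against 2259. For YEJH derived against parental lines the count of 453 became 984 with DESeq2, 272 with set A, 275 with set B, 1396 with limma and library set, and 190 to 978 on leaving out lines or repeats. Between YEJG sites it was 1921 to 2994 (1921 without YEJG-M1). On leaving out technical repeats, 1976 to 3985 genes were called among lung lines and 59 to 117 among fat-pad lines. Fewer reads entered the fits on part of the lines or libraries. Those with library totals alone, no filter, DESeq2 or limma used every line and library, and limma kept the technical repeats apart. The cause of the changes was not tested.

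Same-numbered YEJH lines did not resemble each other (correlations from -0.12 to 0.02), which cannot tell whether they came from the same mouse. The line number as a replicate block gave 0 genes. With the technical repeat number as a replicate block, limma called 315 genes between YEJH sites, 3525 between origins and 1422 for YEJH derived against parental lines. Libraries with the same repeat number correlated by 0.10 on average and by -0.20 at the lowest. Under this block Nectin2 and Cadm1 passed the threshold between YEJG sites and in the difference between origins (-0.68 ± 0.19, adjusted p = 0.00719, and 0.43 ± 0.12, adjusted p = 0.00579, limma; with library set as covariate 0.0104 and 0.00531), and Cadm4 in YEJH and Afdn in YEJG between derived and parental lines. Of the 5 genes most like Nectin3, 0 stayed among the first 5 with Spearman's rho and 0 with YEJH lines only.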
